A study of Mus musculus with 39 samples.

Results

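The genes described here encode the subunits and dedicated assembly factors of the mitochondrial oxidative phosphorylation machinery, measured on Affymetrix arrays in sorted B-lineage cells of mouse bone marrow. They were taken by name: every gene whose single symbol in the probe annotation began with Nduf, Sdh, Uqcr, Cox4, Cox5, Cox6, Cox7, Cox8 or Atp5, which gave 87 of the 12393 genes on the array. By complex, assigned from the start of the symbol alone, these were 39 genes of complex I, 7 of complex II, 8 of complex III, 16 of complex IV and 17 of complex V. Where a gene had several probe sets, the one with the highest mean over the 39 arrays was used; 46 of the 87 had more than 1. Probe sets that carry several symbols were left out, so Ndufa11, Ndufb4 and Ndufs6 were not analysed here.

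In oxidative phosphorylation, electrons from NADH enter the inner mitochondrial membrane at complex I (NADH dehydrogenase) and electrons from succinate at complex II (succinate dehydrogenase). They pass through complex III (the cytochrome bc1 complex) to complex IV (cytochrome c oxidase), which reduces oxygen. Complexes I, III and IV pump protons, and complex V (ATP synthase) makes ATP as the protons return. Some complex IV subunits and the membrane ring of complex V are encoded by several isoform genes. In the B lineage, pro-B and large pre-B cells proliferate, whereas immature and mature B cells are mostly resting.

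The 39 arrays fall into 5 groups. Normal adult bone marrow gave pro-B cells (B220+ CD43+ IgM- IgD-, 6 arrays), pre-B cells (B220+ CD43- IgM- IgD-, 8 arrays), immature B cells (B220+ CD43- IgM+ IgD-, 6 arrays) and mature B cells (B220+ CD43- IgM+ IgD+, 3 arrays). The leukemic pre-B group has 16 arrays of cells with the pre-B phenotype from bone marrow in the MLL-AF4 model of acute lymphoblastic leukemia, a fusion of the Mll gene with AF4. Of these, 5 came from mice leukemic after treatment with pIpC, a synthetic double-stranded RNA that induces interferon, and 11 carry no such note. Leukemic array 116 is described as pre-B cells of an Mll-AF4stop knock-in mouse, without the word leukemic. The strain, the age beyond adult, the allele behind each leukemia and the pooling of animals are not given in the sources used here, and p-values therefore reflect variation among arrays, which may be technical in part.

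Values are log2 of the deposited normalised intensities, and the number of arrays limits their precision. Array medians over all probe sets lay between 6.36 and 6.76 (log2), and no 2 arrays were identical. The accession numbers of the arrays form 2 consecutive runs, run 1 with 22 arrays and run 2 with 17 (all of the mature B arrays among them); no label calls them a batch. The difference between the 3' and 5' probe sets of Actb, a sign of RNA or amplification quality, was 1.29 ± 0.084 (log2, SD, n = 22) in run 1 and 0.80 ± 0.14 (SD, n = 17) in run 2, with no overlap. For Gapdh the same difference was lower in run 1, at 0.97 ± 0.11 (SD, n = 22) against 1.29 ± 0.20 (SD, n = 17), and it moved with the groups. In run 1 its means were 0.93 in leukemic, 0.92 in pro-B, 1.04 in pre-B and 1.10 in immature B arrays, and in run 2 they were 1.09, 1.15, 1.26 and 1.41, with 1.59 in mature B arrays. Its part in the differences below was not tested. Leukemic arrays 226 and 122 had the lowest mean correlations with their own group, 0.906 and 0.917. A gene was taken as dim where its mean lay below 5.65 (log2), the 40th percentile of all gene means. Of the 87 genes, 83 lay above it and Cox4i2, Cox7a1, Cox8b and Cox8c below. B-lineage markers (mean of 6) were at 8.65 to 10.04 on pro-B, 9.96 to 10.46 on pre-B and 7.45 to 9.96 on leukemic arrays, with leukemic array 122 lowest. In RNA from sorted cells, fewer cells of a type and less RNA per cell cannot be told apart.

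Over the 87 genes together, the group mean was highest in leukemic pre-B and lowest in mature B arrays. The median over the genes, taken on each array relative to the mean of the pre-B arrays, was 0.19 ± 0.17 (log2, SD, n = 16) on leukemic pre-B arrays. It was 0.03 ± 0.24 (SD, n = 6) on pro-B and 0.01 ± 0.19 (SD, n = 8) on pre-B arrays. The 6 immature B arrays had -0.16 ± 0.10 (SD, n = 6) and the mature B arrays -0.21 ± 0.03 (SD, n = 3). The ranges of pro-B, pre-B and leukemic arrays overlap, and the mature B range lies within those of the immature B, pre-B and pro-B arrays. The immature B arrays ranged from -0.29 to -0.06, and leukemic array 226, at -0.10, lay within that range. The accession run moved with this value: leukemic arrays of run 1 had a mean of 0.12 and those of run 2 of 0.42, and pre-B arrays had -0.13 and 0.14. In each of the 4 groups with both runs the mean was higher in run 2. The leukemic group holds 12 arrays of run 1 and 4 of run 2 and the pre-B group 4 of each.

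**Figure D1:**
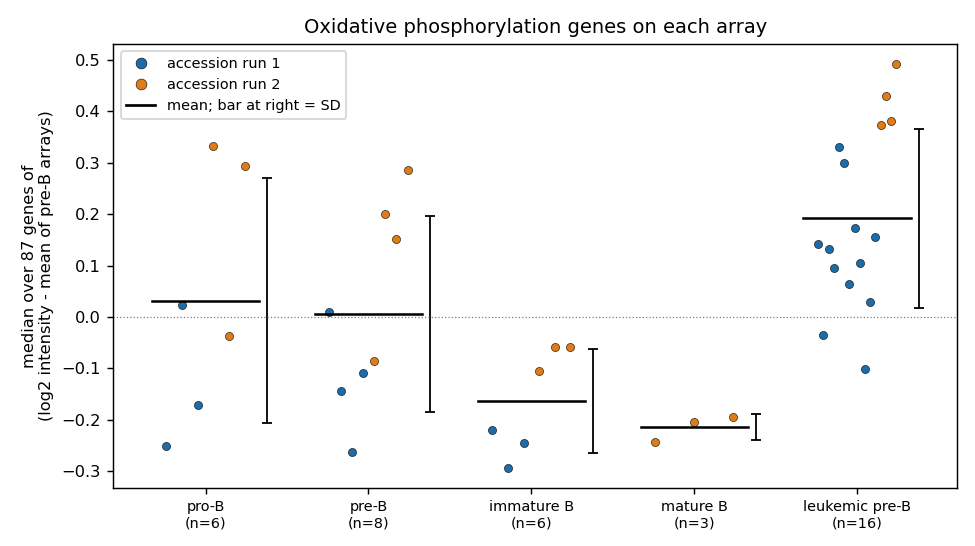
Median over the 87 oxidative phosphorylation genes of the log2 intensity minus that gene's mean in pre-B arrays, 1 point per array, by group. Blue points are accession run 1 and orange points run 2, the line is the group mean and the bar its SD. The 4 leukemic arrays of run 2 lie highest, from 0.37 to 0.49, and the 3 mature B arrays lie between -0.24 and -0.20.

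The first comparison set leukemic pre-B cells against normal cells of the same surface phenotype. Of the 87 genes, 22 were higher in leukemic pre-B cells, 2 were lower and 63 did not pass the test (limma, adjusted p under 0.05 over all genes). Among all 12393 genes tested, 8.50% were called higher and 7.53% lower, against 25.3% and 2.30% of the 87. The median difference was 0.20 (log2), and that of all genes -0.01. All 22 higher genes had positive differences within run 1 and within run 2. They were picked on these same arrays, so signs and calls within a run are no independent check of them. Of the 24 called genes, 11 were also called within each run: Ndufa9, Ndufa12, Ndufab1, Ndufaf4, Ndufc2, Ndufv2, Cox5a, Cox6c, Atp5g2, Atp5l and Atp5mpl. A further 7 (Ndufa4, Ndufa7, Ndufa10, Uqcr11, Atp5b, Atp5c1 and Atp5g1) were called within each run but not over both. The median difference was 0.27 with 20 genes called in run 1 and 0.31 with 35 called in run 2. A fit with run as a covariate called 54, of which 50 were higher. Here and below, the shares of all genes belong to the fits without run as a covariate. Counts with that covariate or within 1 run have no such share beside them. In the fits that left out 1 array in turn, 17 to 33 genes were called, and 17 of the 24 were called in every such fit.

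**Figure D2:**
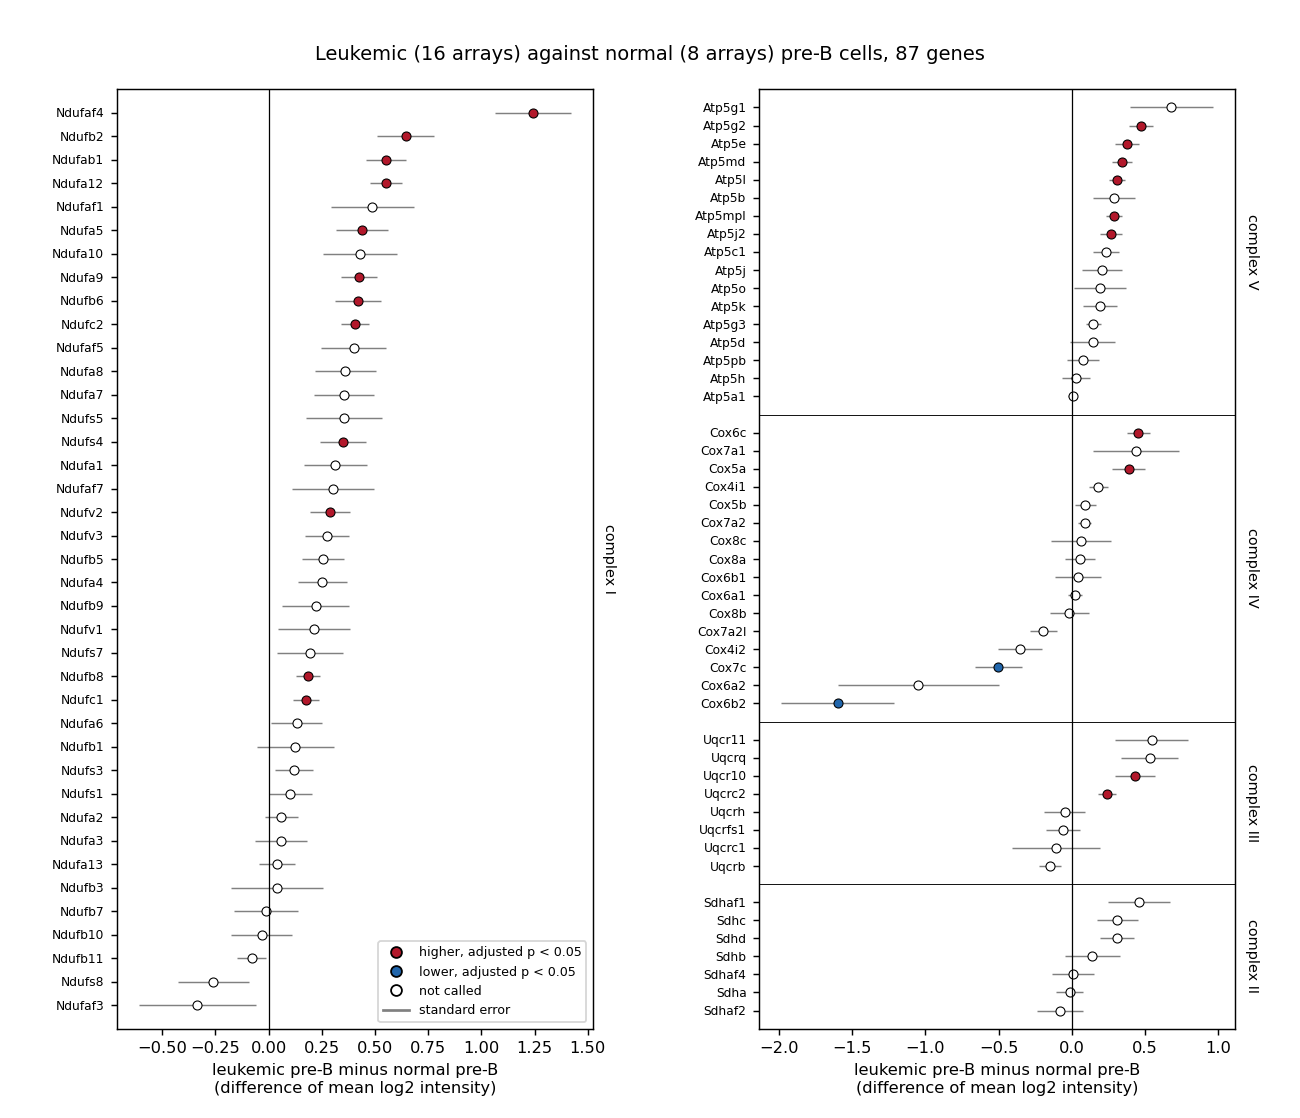
Difference of mean log2 intensity, leukemic pre-B (16 arrays) minus normal pre-B (8 arrays), for each of the 87 genes, sorted within each complex. Red points are higher and blue points lower at an adjusted p under 0.05 (limma), open points are not called, and bars are standard errors. All complex V points lie above 0, and the lowest points are the complex IV genes Cox6b2 at -1.60 and Cox6a2 at -1.05.

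Complex I gave 12 of the 22 higher genes, of its 39. Ndufaf4, an assembly factor needed to build complex I that is no part of the finished enzyme, had the largest rise of the 87. It ranged from 7.47 to 8.43 (log2) with a median of 7.80 on the pre-B arrays and from 7.99 to 9.78 with a median of 9.13 on the leukemic arrays. On 15 of 16 leukemic arrays it was above every pre-B array, and leukemic array 226 was the exception. The means differed by 1.24 with SE 0.18, or 2.37-fold (limma, adjusted p = 1.72e-05). The difference was 1.26 within run 1 and 1.47 within run 2.

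Most of the other called genes of complex I encode accessory subunits, which surround the catalytic core. Ndufb2, a small subunit of the membrane arm, ranged from 9.05 to 9.95 (median 9.54) in pre-B and from 9.66 to 10.68 (median 10.11) in leukemic arrays. The groups overlapped, 11 of 16 leukemic arrays lay above every pre-B array, and the difference was 0.65 with SE 0.13 (limma, adjusted p = 0.00109); within run 1 it was 0.48 and not called. Ndufab1, the mitochondrial acyl carrier protein, ranged from 10.07 to 10.74 (median 10.35) in pre-B and from 10.50 to 11.21 (median 10.90) in leukemic arrays. Its difference was 0.55 with SE 0.09 (limma, adjusted p = 0.000108), 0.61 within run 1 and 0.63 within run 2, and 12 of 16 leukemic arrays lay above every pre-B array. Ndufa12, an accessory subunit of the matrix arm, was singled out after its values were seen, because it alone of the 87 had groups that did not overlap, as had 1.55% of all genes. It lay between 10.68 and 11.22 (median 10.93) in pre-B and between 11.28 and 11.76 (median 11.49) in leukemic arrays, a difference of 0.55 with SE 0.07 (limma, adjusted p = 6.63e-06), 0.55 within run 1 and 0.51 within run 2. The other 8 higher genes, Ndufa5, Ndufa9, Ndufb6, Ndufb8, Ndufc1, Ndufc2, Ndufs4 and Ndufv2, had differences from 0.18 to 0.44. Of these, 4 lost their call in some fits that left out 1 array, Ndufb8 and Ndufs4 in 4 of 24, Ndufv2 in 8 and Ndufc1 in 15. For Ndufb8 these were the fits without pre-B array 1, 3, 6 or 7 (0.17 to 0.18) and for Ndufs4 those without pre-B array 1, 6, 7 or 8 (0.30 to 0.34). Ndufv2 lost it without pre-B array 1, 5, 6, 7 or 8 or leukemic array 15, 154 or A46 (0.25 to 0.30). Ndufc1 kept it without pre-B array 2 or 4 or leukemic array 117, 153, 224, 226, 227, A992 or A1507, and lost it otherwise (0.14 to 0.18). Of the 8, Ndufv2 is a core subunit near the entry of electrons from NADH. The core subunits Ndufs1 and Ndufv1, which carry iron-sulfur clusters and the NADH site, differed by 0.10 and 0.22 and did not pass the test. Ndufs8, another core subunit, differed by -0.26, and Ndufs3 and Ndufs7 by 0.12 and 0.20, all without a call. Ndufb11, the uncalled gene of this complex with the highest mean, differed by -0.08.

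No gene of complex II passed the test, of 7. Sdha, the flavoprotein that oxidises succinate, ranged from 10.43 to 10.91 (median 10.68) in pre-B and from 10.35 to 11.06 (median 10.67) in leukemic arrays, a difference of -0.01. A second bright probe set of Sdha differed by 0.36, and the mean of both by 0.17 without a call (limma, adjusted p = 0.0893). Sdhb, its iron-sulfur partner, differed by 0.14, and the membrane anchors Sdhc and Sdhd by 0.31 each (limma, adjusted p = 0.153 and 0.0822). With the run as a covariate both anchors were called, at 0.41 and 0.38.

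In complex III 2 of 8 genes were higher. Uqcrc2, a core protein on the matrix side, ranged from 11.26 to 11.73 (median 11.57) in pre-B and from 11.63 to 11.99 (median 11.76) in leukemic arrays, a difference of 0.24 with SE 0.06 (limma, adjusted p = 0.00607). It was 0.20 within run 1 and 0.22 within run 2, and called in neither. Uqcr10, a small accessory subunit, ranged from 10.07 to 10.58 (median 10.35) in pre-B and from 9.93 to 11.30 (median 10.75) in leukemic arrays. Leukemic array 117 was below every pre-B array and 11 others were above. Its difference of 0.43 (limma, adjusted p = 0.0299) was no longer called without any one of pre-B arrays 1, 6, 7 or 8, at 0.40 to 0.43. It was 0.41 within run 1, where it was not called, and 0.56 within run 2. Uqcrc1, the other core protein, differed by -0.11, and Uqcrfs1, the Rieske iron-sulfur protein, by -0.06. Uqcrb, the uncalled gene of this complex with the highest mean, differed by -0.15. Of the 8 differences 4 were positive and 4 negative.

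Complex IV had 2 genes higher and 2 lower, of 16. Cox6c, a small structural subunit, ranged from 11.19 to 11.78 (median 11.44) in pre-B and from 11.57 to 12.40 (median 11.93) in leukemic arrays. On 13 of 16 leukemic arrays it was above every pre-B array, and the difference was 0.45 with SE 0.08 (limma, adjusted p = 0.000169), 0.39 within run 1 and 0.51 within run 2. Cox5a, a subunit on the matrix face, differed by 0.39 (limma, adjusted p = 0.0198) and lost its call without pre-B array 6, 7 or 8, at 0.34 to 0.35; it was called within both runs, at 0.47 and 0.55. The ubiquitous subunits Cox4i1, Cox5b, Cox6a1, Cox6b1, Cox7a2 and Cox8a had differences from 0.02 to 0.18 and did not pass the test. Cox7a2l, a factor that helps complexes III and IV associate, differed by -0.19 and was not called.

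Both lower genes belong to complex IV. Cox6b2, the testis isoform of the subunit that faces cytochrome c, ranged from 5.41 to 8.03 (median 7.01) in pre-B and from 4.10 to 7.05 (median 4.96) in leukemic arrays. On 10 of 16 leukemic arrays it lay below every pre-B array, and leukemic arrays 117, 224, 226, 227 and 228 were the highest, from 6.19 to 7.05. The difference was -1.60 with SE 0.39, or 3.03-fold (limma, adjusted p = 0.00454). It was -0.69 within run 1, where it was not called, and -2.88 within run 2 (limma, adjusted p = 0.000295). The leukemic mean of 5.30 lies below the limit for dim genes. Cox7c, a small subunit, ranged from 7.88 to 8.73 (median 8.24) in pre-B and from 7.17 to 8.72 (median 7.79) in leukemic arrays, a difference of -0.50 with SE 0.16 (limma, adjusted p = 0.0344). Its call was lost without any one of pre-B arrays 1, 3, 6, 7 and 8 or leukemic array 153, at -0.50 to -0.43. It was -0.62 within run 1 and -0.40 within run 2, and called in neither. Its only other probe set lies below the dim limit.

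All 17 genes of complex V had positive differences and 6 were called. Atp5g2, 1 of 3 genes for the c subunit of the membrane ring, ranged from 11.05 to 11.81 (median 11.43) in pre-B and from 11.66 to 12.18 (median 11.92) in leukemic arrays. The difference was 0.47 with SE 0.08 (limma, adjusted p = 0.000146), 0.44 within run 1 and 0.40 within run 2. Atp5g1, a second ring gene, had a pooled difference of 0.68 and was not called (limma, adjusted p = 0.115). Its pre-B mean was 9.74 in run 1 and 11.04 in run 2, and its leukemic mean 10.74 and 12.06. It was called within each run, and at 1.01 with run as a covariate (limma, adjusted p = 9.9e-06). Atp5g3, the third ring gene, differed by 0.15 and was not called. Atp5e, the epsilon subunit of the central stalk, differed by 0.37 with SE 0.08 (limma, adjusted p = 0.00172), 0.27 within run 1 without a call and 0.42 within run 2. Atp5md and Atp5mpl, small proteins of the membrane part, differed by 0.34 and 0.29, and Atp5l and Atp5j2, the g and f subunits, by 0.31 and 0.27. In the catalytic head, Atp5a1, the alpha subunit, differed by 0.01, and Atp5b and Atp5c1, the beta and gamma subunits, by 0.29 and 0.23 without a call.

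Where a called gene had several probe sets above the dim limit, all had the same sign, in 15 of 15 higher genes. Of 27 uncalled genes with several such probe sets, 4 had probe sets of both signs (Ndufb7, Sdha, Cox5b and Cox6b1). Of the 13 measured mitochondrial protein import genes, which bring nuclear-encoded subunits into the organelle, 9 were higher in leukemic than in normal pre-B cells and none was lower, with a median difference of 0.58. Of 12 glycolysis genes 7 were higher, with a median of 0.62, and of 17 tricarboxylic acid cycle genes 3, with a median of 0.09. Among 9 assembly factors of cytochrome c oxidase outside the name rule 3 were higher, among them Cox18 by 1.07. Of 13 regulators of mitochondrial genes 3 were higher and 2 lower: Myc rose by 2.73 and Pprc1, a coactivator of nuclear respiratory factors, by 1.26, while Nrf1 fell by 0.61 and Ppargc1a by 1.23 on the log2 scale. These lists were chosen with earlier results of these data known. Against pro-B cells, 3 of the 13 import genes were higher and none lower, with a median of 0.27. Of the glycolysis genes 1 was higher and 1 lower there (median 0.15), and no tricarboxylic acid cycle gene or regulator was called. Myc lay at 9.49 to 11.13 (log2) on pro-B, 6.77 to 8.83 on pre-B and 8.66 to 11.51 on leukemic arrays. Markers of other cells moved between leukemic and normal pre-B cells too. Of 11 myeloid markers 5 were lower in leukemic cells, with array means from 5.33 to 9.74 in leukemic and from 7.69 to 9.75 in pre-B arrays. Of 9 T and NK cell markers 2 were lower (3.98 to 7.24 against 5.26 to 5.98), of 7 plasmacytoid dendritic cell markers 3 (5.66 to 9.37 against 6.16 to 8.64), and of 6 B-lineage markers 2. Their part in the differences was not tested.

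Promoter windows from RefSeq, 250 bases before to 50 after the start of each gene (GRCm38), were matched by symbol for 73 of the 87 genes, and 14 had none. The windows were searched on both strands for 3 motifs known from promoters of respiratory chain genes. Shares are of genes with at least 1 window that holds the motif; 5 of the 73 have 2 windows. The NRF1 motif (GCGCA, any base, GCGC) was found in 17 of 73 genes (23.3%), against 5.19% of all 27025 genes with a window and 9.36% of those on the array. The ETS and GABPA motif CCGGAAG was in 20 (27.4%), against 9.93% and 16.3%, and the YY1 motif AAGATGGC in 9 (12.3%), against 3.19% and 4.39%. The E-box CACGTG, a site type of MYC, was in 6 (8.22%), against 8.09% and 10.8%. No window had overlapping motifs of 2 kinds. Of the 19 genes with a window that were higher in leukemic pre-B cells, 3 held the NRF1, 4 the ETS and 5 the YY1 motif, and of the other 54 genes 14, 16 and 4. A match describes the letters and not a bound site.

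The sequences of 4 higher genes show these motifs, with the motif in capitals and the rest in lower case, 5' to 3' on the strand of the gene. Ndufaf4 and Atp5g2, with the largest called differences of complexes I and V, hold the NRF1 motif, Ndufb6 the ETS motif on the reverse strand, and Ndufb8 the YY1 motif. The first 3 are the 250 bases before the start, at chr4:24897833-24898082 (plus strand), chr15:102671048-102671297 (minus strand) and chr4:40279422-40279671 (minus strand). For Ndufb8, whose motif lies after the start, 23 bases around it are shown, at chr19:44555393-44555415 (minus strand).
Ndufaf4: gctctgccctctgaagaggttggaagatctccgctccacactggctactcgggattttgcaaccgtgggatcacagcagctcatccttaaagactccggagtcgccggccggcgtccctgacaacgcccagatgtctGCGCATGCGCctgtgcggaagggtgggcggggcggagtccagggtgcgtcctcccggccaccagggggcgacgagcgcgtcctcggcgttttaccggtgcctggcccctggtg
Atp5g2: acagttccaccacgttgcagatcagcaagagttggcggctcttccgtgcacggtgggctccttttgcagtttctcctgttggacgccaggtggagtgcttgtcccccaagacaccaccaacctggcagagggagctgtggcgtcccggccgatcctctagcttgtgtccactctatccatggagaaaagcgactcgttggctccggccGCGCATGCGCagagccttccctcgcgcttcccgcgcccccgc
Ndufb6: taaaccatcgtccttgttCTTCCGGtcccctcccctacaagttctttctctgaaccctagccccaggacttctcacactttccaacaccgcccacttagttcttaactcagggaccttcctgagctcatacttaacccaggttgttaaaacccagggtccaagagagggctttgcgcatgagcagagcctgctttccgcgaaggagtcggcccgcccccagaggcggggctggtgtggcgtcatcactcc
Ndufb8: cggagaaggtgAAGATGGCtgcc

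The second comparison set leukemic pre-B cells against pro-B cells, the less mature normal stage; it shares the leukemic arrays with the first. Of the 87 genes, 12 were higher in leukemic cells and 2 lower (limma, adjusted p under 0.05), 13.8% and 2.30%, where 8.11% and 7.63% of all genes were called. The median difference was 0.15, and that of all genes 0.13. Within run 1 only 3 genes were called and within run 2 only 2, with medians of 0.28 and 0.23. A fit with run as a covariate called 41, of which 39 were higher, and without leukemic arrays 122 and 226 there were 22. Without pro-B array 2 the count was 7 and without pro-B array 6 it was 9. Of the 14 called genes 6 were called in every fit that left out 1 array: Ndufc2, Cox6a2, Cox6b2, Cox6c, Atp5l and Atp5md.

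Cox6a2, the heart and skeletal muscle isoform of a complex IV subunit, had the largest difference. It ranged from 10.05 to 11.87 (median 10.99) in pro-B and from 5.10 to 11.15 (median 6.64) in leukemic arrays. Leukemic arrays 117 and 122, at 10.12 and 11.15, lay within the pro-B range, and the other 14 lay below all pro-B arrays. The difference was -3.76 with SE 0.64, or 13.6-fold (limma, adjusted p = 0.000303), -3.27 within run 1, where it was not called, and -5.01 within run 2. Against pre-B cells the difference was -1.05 and not called (limma, adjusted p = 0.229), with -0.63 within run 1 and -2.23 within run 2, where it was called (limma, adjusted p = 0.00441).

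Markers of plasmacytoid dendritic cells, which carry B220, were also highest on pro-B arrays. Their mean over the 7 measured of 8 markers was 9.98 to 11.42 on pro-B arrays. It was 6.16 to 8.64 on pre-B and 5.66 to 9.37 on leukemic arrays. All 7 were lower in leukemic than in pro-B cells. The 3 leukemic arrays with the highest marker means, 122 at 9.37, 153 at 8.76 and 117 at 7.93, were also the 3 with the highest Cox6a2, at 11.15, 8.86 and 10.12. T and NK cell markers were higher on pro-B arrays as well, with means of 8.18 to 9.77 against 3.98 to 7.24 on leukemic arrays, and 7 of 9 were called lower there. Of the 11 myeloid markers 7 were lower in leukemic cells. From pre-B to immature B arrays the mean of the dendritic cell markers went from 7.88 to 7.31. Cox6a2 went the other way there, from 8.26 to 8.65, without a call. The part of dendritic, T, NK and myeloid cells in the level of Cox6a2 was not tested.

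**Figure D3:**
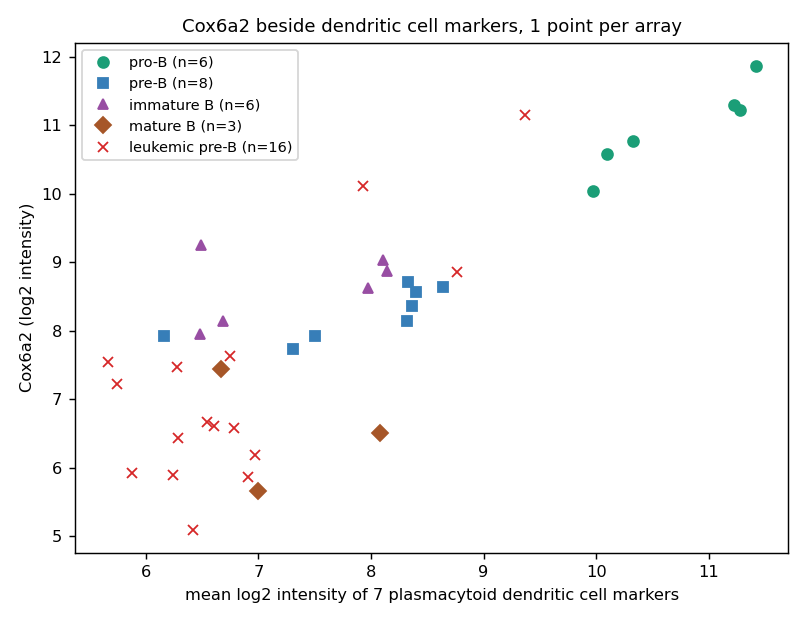
Level of Cox6a2 (log2 intensity) against the mean log2 intensity of 7 plasmacytoid dendritic cell markers, 1 point per array, marked by group. The 6 pro-B arrays lie at the upper right, with marker means from 9.98 to 11.42 and Cox6a2 from 10.05 to 11.87; both values of a point come from the same array, and no test was made.

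The other lower gene was Cox6b2, at 6.90 ± 0.67 (SD, n = 6) in pro-B arrays, with a difference of -1.60 (limma, adjusted p = 0.0119), -0.86 within run 1 without a call and -2.71 within run 2. Among the higher genes, Sdhaf2, which helps attach flavin to Sdha, ranged from 8.49 to 9.66 (median 8.90) in pro-B and from 8.90 to 10.26 (median 9.70) in leukemic arrays. Its difference was 0.68 with SE 0.20 (limma, adjusted p = 0.0255), 0.83 within run 1 and 0.77 within run 2 without a call in either, and leaving out any one of the pro-B arrays 2, 4 and 6 ended the call, at 0.57 to 0.64. The same 3 arrays each decided the calls of Ndufb1, a small accessory subunit, at 0.67 (0.56 to 0.64 without one of them) and Ndufaf5, an assembly factor that modifies a core subunit, at 0.56. For Ndufaf5 leukemic arrays 154 and 224 did so too, and it was 0.48 to 0.56 without one of the 5. Cox8c, the testis isoform of a small subunit, differed by 0.72, with both group means below the dim limit, and lost its call without pro-B array 3 or 6, at 0.67 and 0.68. Ndufa12, at 0.36, and Atp5g2, at 0.32, lost theirs without pro-B array 2, at 0.29 and 0.27. Atp5mpl, at 0.24, lost its call without pro-B array 2, at 0.20, and Ndufb8, at 0.25, in 11 of 22 such fits, at 0.19 to 0.27. Cox6c differed by 0.43, Atp5md by 0.34 and Atp5l by 0.33. Ndufaf4, at 8.51 to 9.21 (median 8.93) in pro-B arrays, differed by 0.24 and was not called (limma, adjusted p = 0.414).

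**Figure D4:**
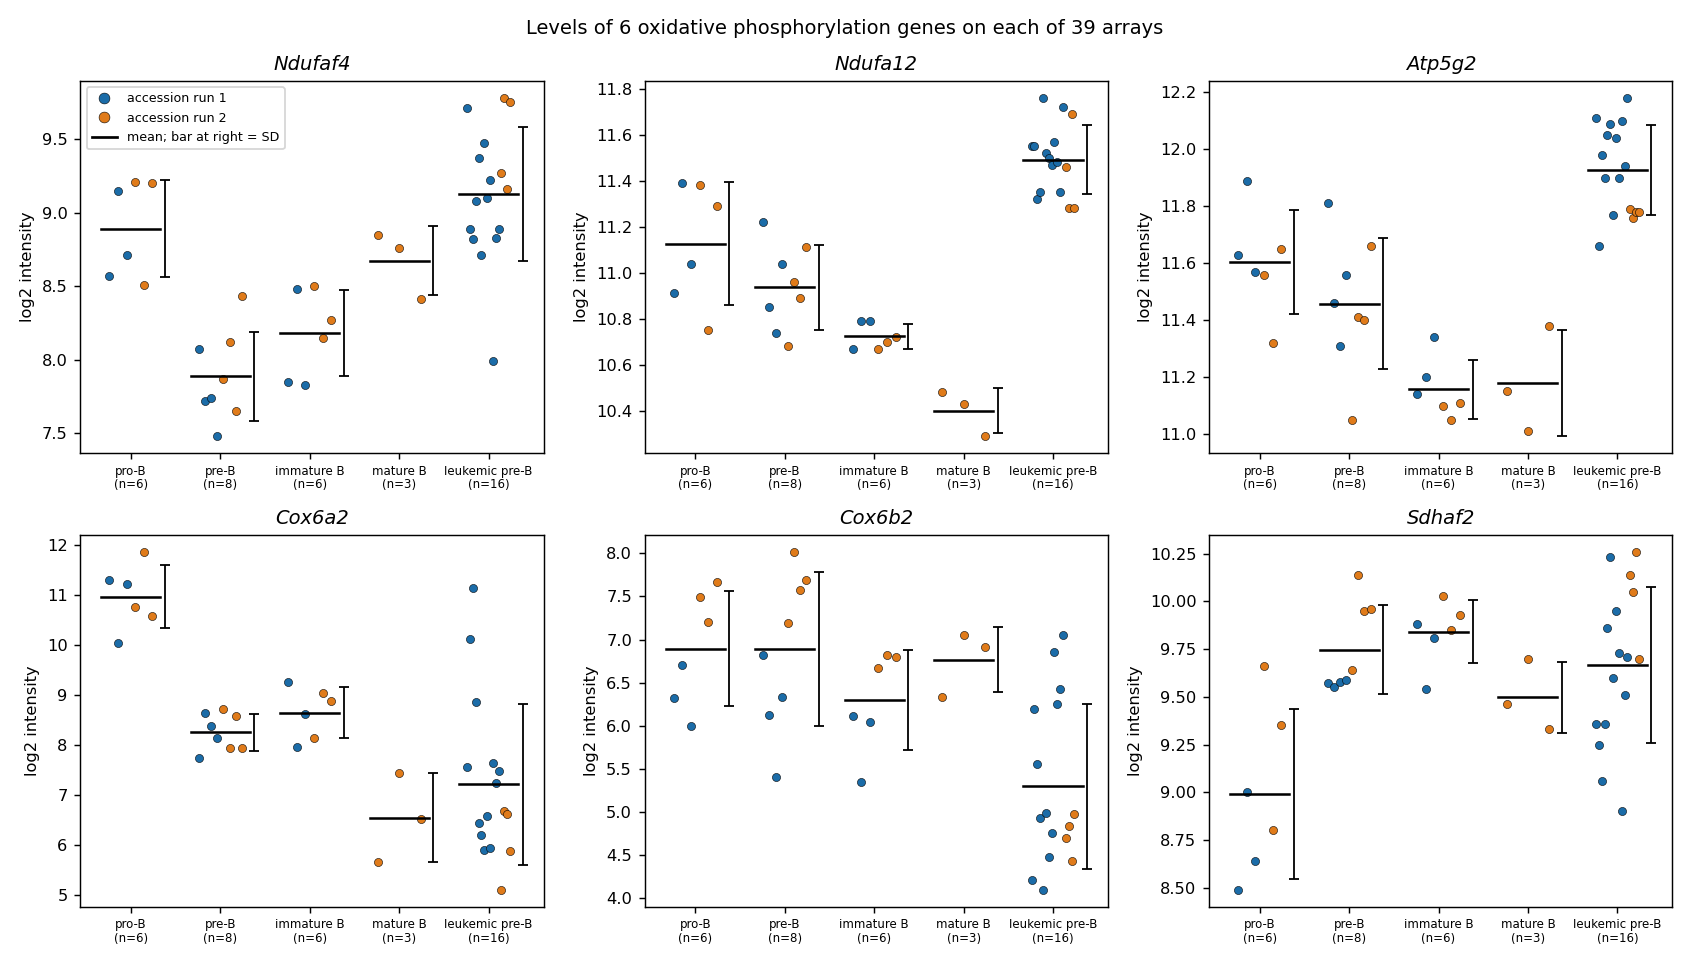
Log2 intensity of Ndufaf4, Ndufa12, Atp5g2, Cox6a2, Cox6b2 and Sdhaf2 on each of the 39 arrays, by group. Blue points are accession run 1 and orange points run 2, the line is the group mean and the bar its SD. Ndufaf4 is lowest in pre-B arrays, the means of Ndufa12 step down from pro-B to mature B and are highest in leukemic arrays, and Cox6a2 is highest in pro-B arrays.

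Among the 4 normal stages, 35 of the 87 genes differed (limma F test, adjusted p under 0.05), or 40.2%, where 43.9% of all genes did. Of complex IV 11 of 16 were called, of complex I 13 of 39, of complex V 7 of 17, of complex III 3 of 8 and of complex II 1 of 7. Among the 11 of complex IV, Cox4i2 and Cox8c had means below the dim limit at every stage. Of the 35, 20 had their highest mean in pro-B cells, 13 in pre-B cells and 2 in immature B cells. None had it in mature B cells, where 27 had their lowest. The 35 were picked by a test on these same means. Over all 87 genes, called or not, the mature B mean was the highest for 17 and the lowest for 45. The pro-B mean was the highest for 42, the pre-B mean for 25 and the immature B mean for 3. Such counts over all genes on the array are not given here. All mature B arrays belong to run 2. A fit with run as a covariate called 67. Within run 1, which has no mature B array, 10 were called, and within run 2 there were 47.

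The largest range of stage means was that of Cox6a2, at 10.97 (log2) for pro-B, 8.26 for pre-B, 8.65 for immature B and 6.54 for mature B cells. Uqcrq, a small subunit of complex III, followed with 9.68, 9.47, 9.06 and 8.47 in the same order. Ndufb2 was at 9.72, 9.50, 9.23 and 8.78, and Ndufa9, an accessory subunit next to the ubiquinone site, at 11.32 in pro-B, 10.96 in immature B and 10.32 in mature B cells. The means of these 3 genes stepped down with each stage. The only step among them that passed its own test was the fall of Ndufa9 from immature to mature B cells. Ndufaf4 did not follow this order, with 8.89, 7.88, 8.18 and 8.67, and was lowest in pre-B cells. Uqcrc1, with 9.34, 9.54, 9.07 and 9.94, had a range of 0.88 but did not pass the test (limma F test, adjusted p = 0.367).

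**Figure D5:**
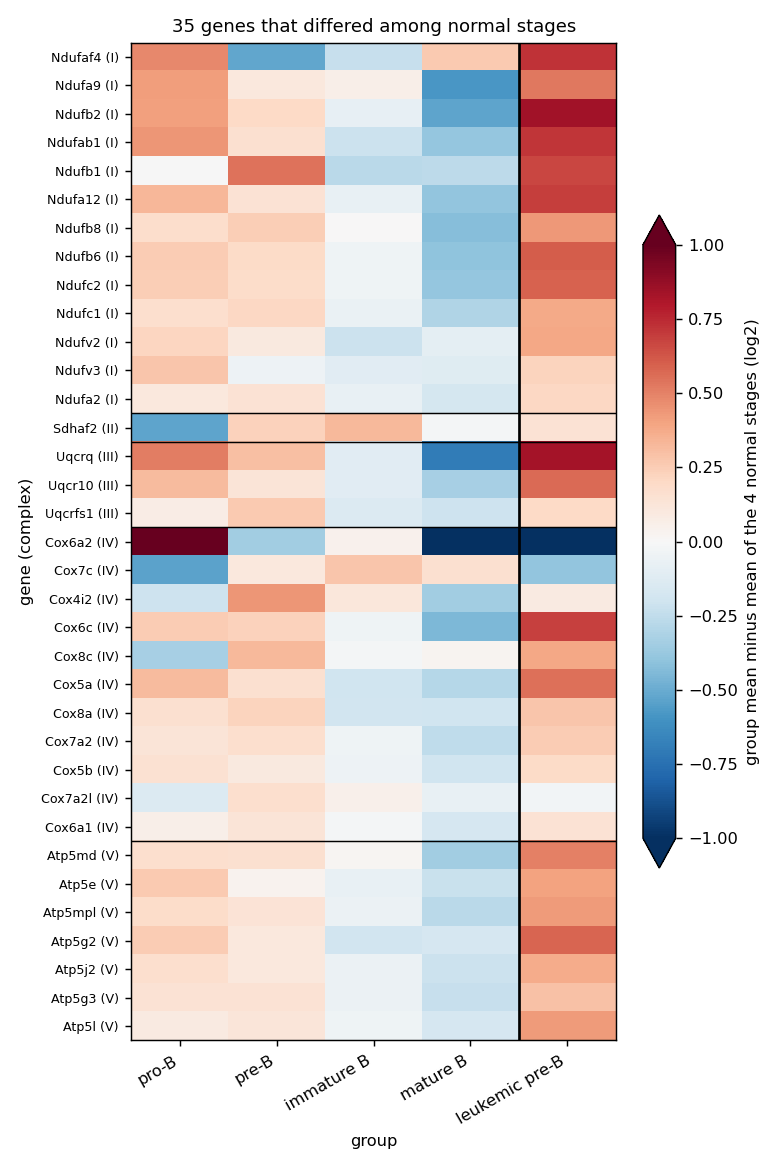
Group means of the 35 oxidative phosphorylation genes that differed among the normal stages, as log2 difference from the mean of the 4 stages, grouped by complex; the colour scale ends at -1 and 1. The leukemic pre-B column stands to the right of the line and did not enter the test. Most rows run from red in pro-B or pre-B to blue in mature B, and Ndufaf4, Sdhaf2 and Cox7c follow other orders.

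From pro-B to pre-B cells 6 genes rose and 3 fell, 6.90% and 3.45% of the 87, where 17.9% and 15.7% of all genes were called. The median difference was -0.04, and that of all genes 0.11. Within run 1 the median was -0.02 with 7 genes called, and within run 2 it was -0.06 with 8. A fit with run as a covariate called 17, of which 9 were higher and 8 lower. All 9 were called in every fit that left out 1 array, and 6 (Cox6a2, Cox7a2l, Cox7c, Ndufaf4, Ndufv3 and Sdhaf2) within each run. Cox6a2 fell by 2.71 on the log2 scale with SE 0.28 (limma, adjusted p = 8.65e-08), from the pro-B levels above to 7.73 to 8.72 (median 8.26) in pre-B arrays, with no overlap. All 7 plasmacytoid dendritic, all 9 T and NK and 8 of 11 myeloid cell markers fell as well, and the part of those cells was not tested. Ndufaf4 fell by 1.01 with SE 0.17 (limma, adjusted p = 5.84e-05), with no overlap between 8.51 to 9.21 in pro-B and 7.47 to 8.43 in pre-B arrays. It fell by 1.06 within run 1 and by 0.95 within run 2. The groups did not overlap in 3 of the 87 genes, Cox6a2, Ndufaf4 and Cox7c, and in 10.8% of all genes. Ndufv3, a small subunit of the NADH-binding part, fell by 0.33 with SE 0.07 (limma, adjusted p = 0.00126).

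Sdhaf2 rose by 0.76 with SE 0.15 (limma, adjusted p = 0.000554), 0.86 within run 1 and 0.65 within run 2, from 8.49 to 9.66 in pro-B to 9.55 to 10.14 (median 9.62) in pre-B arrays, which overlap in part. Cox7c rose by 0.64 with SE 0.14 (limma, adjusted p = 0.00166), 0.62 within run 1 and 0.66 within run 2, from 7.25 to 7.81 (median 7.70) in pro-B to 7.88 to 8.73 in pre-B arrays, with no overlap. Cox7a2l rose by 0.30 with SE 0.07 (limma, adjusted p = 0.00233). The other 3, the isoforms Cox4i2, Cox8b and Cox8c, known from lung, heart and testis, differed by 0.64, 0.40 and 0.66 with means below the dim limit in both stages. Among other genes of the pathway, 6 of 12 glycolysis genes were lower in pre-B cells and none was higher, and of 13 protein import genes 4 were lower and 1 was higher.

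From pre-B to immature B cells 8 genes fell and none rose, 9.20% of the 87, where 8.70% of all genes were called lower and 10.9% higher. At an unadjusted p under 0.05 (limma), 25 were lower and 0 higher, and the share of all genes at that threshold is not given here. The median difference was -0.17, and that of all genes -0.06, with 74 of 87 genes negative, among them all 17 of complex V. In complex V the sign hung on the probe set for Atp5c1 and Atp5d. The second probe set of Atp5c1, above the dim limit, differed by 0.89, and that of Atp5d by 0.004. The median was -0.14 within run 1 and -0.21 within run 2, with 3 and 6 genes called. A fit with run as a covariate called 30, all lower. Without pre-B array 4 or 5 the count was 3, and without pre-B array 2 or 3 or immature B array 5 or 6 it was 4. Only Ndufb1, Cox7a2 and Cox8a were called in every fit that left out 1 array.

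Ndufb1 was at 6.24 to 7.37 (median 6.90) in pre-B and 5.42 to 6.25 (median 6.10) in immature B arrays, and fell by 0.81 on the log2 scale (limma, adjusted p = 0.0087). Cox8a, the common isoform of a small subunit, was at 10.45 to 10.89 (median 10.61) and 10.04 to 10.37 (median 10.28), with no overlap, and fell by 0.42 with SE 0.10 (limma, adjusted p = 0.00356). Cox7a2, the common isoform of another, fell by 0.21 with SE 0.05 (limma, adjusted p = 0.00257). The pre-B and immature B groups did not overlap in 2 of the oxidative phosphorylation genes, Cox8a and Cox6a1. They did not overlap in 9.67% of all genes, and Cox6a1 was not called. Ndufs5, an accessory subunit, fell by 0.52 and lost its call without any one of pre-B arrays 2 to 5 or immature B arrays 3 to 6, at -0.54 to -0.44. Uqcrfs1 fell by 0.40 and Atp5g3 by 0.21; both lost their call without any one of pre-B arrays 2 to 5 or immature B arrays 4 to 6, at -0.40 to -0.33 and -0.20 to -0.18. Atp5g2 fell by 0.30, and lost its call without any one of pre-B arrays 4, 5, 6 and 8 or immature B arrays 1 to 5, at -0.31 to -0.25. Atp5mpl fell by 0.19, and lost its call in 11 of 14 such fits, all but those without pre-B array 1 or 7 or immature B array 4. Myeloid markers moved in this comparison, 5 of 11 higher in immature B cells, with array means of 8.71 to 10.77 against 7.69 to 9.75, and 6 of 9 T and NK cell markers were lower; their part was not tested.

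From immature to mature B cells 4 genes fell and none rose, 4.60% of the 87, where 3.29% of all genes were called lower and 1.96% higher. At an unadjusted p under 0.05 (limma), 15 differed, of which 1 was higher, and the share of all genes at that threshold is not given here. The median difference was -0.07, and that of all genes 0.05. With run as a covariate the median was -0.19 and 9 genes were called, all lower, and within run 2 the median was -0.13. Only Cox6a2 was called in every fit that left out 1 array. It was 5.66, 7.44 and 6.51 on the 3 mature B arrays and 7.96 to 9.26 (median 8.74) on the immature B arrays, with no overlap, a fall of 2.11 with SE 0.37 (limma, adjusted p = 0.000721). Within run 2 it fell by 2.14 and was the 1 gene called there. The mature and immature B groups did not overlap in 11 of the 87 genes and in 10.7% of all genes. Of the 7 dendritic cell markers none was called in this step, and their array means were 6.48 to 8.14 in immature and 6.67 to 8.08 in mature B arrays.

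Ndufa9 was 10.42, 10.59 and 9.96 on the mature B arrays and 10.56 to 11.38 (median 10.86) on the immature B arrays, a fall of 0.64 (limma, adjusted p = 0.0259). Its call was lost without immature B array 5 or 6 or mature B array 1 or 3, at -0.69 to -0.45. Ndufb8, an accessory subunit of the membrane arm, was 10.43, 10.69 and 10.43 and fell by 0.43 (limma, adjusted p = 0.0423); its call was lost without immature B arrays 3, 4, 5 or 6 or mature B array 1 or 3, at -0.44 to -0.38. Cox7a2 was 12.55, 12.63 and 12.66 and fell by 0.21, and its call was lost without any one of the 9 arrays, at -0.24 to -0.18. The count of called genes was 1 without immature B array 5 or 6 or mature B array 1 or 3, and 2 without immature B array 3 or 4.

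Last, the 5 leukemic arrays from mice treated with pIpC were set against the other 11. No gene of the 87 passed the test in limma, and 0% of all 12393 genes did. At an unadjusted p under 0.05 there were 4 genes: Cox6a1 at -0.14, Cox6a2 at -1.63, Sdhaf2 at 0.48 and Sdhd at 0.34. For all genes the share at that threshold is not given here. Cox6a2 was at 5.10 to 6.67 in the first and 5.87 to 11.15 in the second set, where arrays 117 and 122 are the highest. In a single fit of all 39 arrays 59 genes of the whole table were called, none of them among the 87. The median difference of the 87 genes was 0.09, 0.05 within run 1 and -0.02 within run 2.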

How the data were processed

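Biotin-labelled targets were amplified from 20 nanograms of total RNA, per the labels' protocols, and 39 Affymetrix arrays were analysed. The authors deposited normalised intensities on a linear scale from RMA (named in the submitters' processing notes, without a version); whether all arrays were normalised together is not given in the sources used here. RMA scales arrays to each other, so a shift shared by all genes can be lost. Log2 was taken. Of 22690 probe sets, 64 controls, 691 with several symbols and 1555 with none were left out; 20380 remained for 12393 genes.

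Comparisons were fitted with limma 3.58.1 in R 4.3.3 (lmFit, eBayes with an intensity trend), on the groups compared (the 4 stages in 1 fit), with Benjamini-Hochberg adjustment over all genes and a threshold of 0.05. The fit was tested on simulated data. Alternatives were the normalization, the dim filter, the probe set rule, the trend, the run, the replicate block and arrays left out. Members and lists were chosen with earlier results of these data known. Genes named were drawn, per comparison and complex, from up to 3 called in each direction and the uncalled one with the highest mean. Further sources were listed catalytic and isoform genes, the 6 largest stage ranges and up to 3 called genes of a pathway list. Not every such gene is named in every comparison, and others are given by range.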

Additional observations from a re-analysis of the deposited data

Results flagged for a closer look

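The 50 named genes were looked at in each group of 4 to 10 arrays for 1 array far from the others of its group by Dixon's criterion at 95%. This picked out 5 of 150 sets of values (3.3%), where chance picks out about 1 in 20. Immature B array 4 was the distant array in 4 of them. There Ndufab1 was at 9.62 (log2) with the other immature B arrays from 9.96 to 10.16. Ndufb1 was at 5.42 with the others from 5.96 to 6.25. Sdhc was at 8.33 with the others from 9.06 to 9.31, and Ndufaf5 was high, at 8.32 with the others from 7.65 to 7.85. The remaining one was Uqcrb on pro-B array 4, at 11.58 with the other pro-B arrays from 11.86 to 11.98.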

How the results depend on the processing

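The counts of called genes and the median differences kept their size, within 1.5 times or 1 SD, under quantile normalization, without the dimmest 40% of genes, with the mean of all probe sets and without probe set types that can match several transcripts. The exceptions came from other settings, and the share of all genes called under each of these is not given here. With the accession run as a covariate the count was 54 for leukemic against normal pre-B (24 before), 41 for leukemic pre-B against pro-B (14), 17 for pre-B against pro-B (9), 30 for immature B against pre-B (8), 9 for mature against immature B (4, with a median of -0.19) and 67 among the 4 stages (35). Within run 1 it was 3 for leukemic pre-B against pro-B, 3 for immature B against pre-B and 10 among the stages, and within run 2 it was 2 for leukemic pre-B against pro-B and 1 for mature against immature B, with fewer arrays in each fit. Without leukemic arrays 122 and 226, an alternative chosen after seeing the data, it was 22 for leukemic pre-B against pro-B. Without the intensity trend it was 5 for immature B against pre-B and 2 for mature against immature B, and 2 for the latter with all 39 arrays in 1 fit.

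Leaving out 1 array gave 17 to 33 called genes for leukemic against normal pre-B, 7 to 19 against pro-B, 9 to 12 for pre-B against pro-B, 3 to 12 for immature B against pre-B, 1 to 4 for mature against immature B and 27 to 38 among the stages.

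The replicate numbers gave no pairing beyond the run. Of 25 same-numbered pairs within a run, 16 had a correlation over 0.1 (median 0.271), and of 71 pairs with other numbers 46 (median 0.273), while 2 same-numbered pairs across runs had -0.744 and -0.581. A fit with the replicate number as a block called 20 genes for immature B against pre-B, 1 for mature against immature B, 9 for pre-B against pro-B and 47 among the stages; leukemic arrays share no numbers with the others.

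Among 1925 values of named genes under the alternatives, the sign turned in 7 where a value was called on either side and in 103 where neither was. The causes were not tested, except that Ndufa12 and Atp5g2 here rest on probe sets with means of 4.75 and 5.15, below the dim limit, alone or in the mean. Without probe set types that can match several transcripts, Ndufa12 was at -0.10 in leukemic pre-B against pro-B, Cox5b at -0.66 in leukemic against normal pre-B and at 0.41 in pre-B against pro-B, and Atp5c1 at 0.89 in immature B against pre-B. With the mean of probe sets Atp5g2 was at 0.004 and Atp5c1 at 0.42 in immature B against pre-B. With the run as a covariate Sdhb was at -0.42 in mature against immature B.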
